A study of Mus musculus with 10 samples.

Results

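MHC class I molecules display peptides from inside the cell, and the genes described here are the 9 that build and load them: the heavy chains H2-K1 and H2-D1, their shared light chain B2m (beta-2 microglobulin), the peptide transporter chains Tap1 and Tap2, the loading bridge Tapbp (tapasin) and the immunoproteasome subunits Psmb8, Psmb9 and Psmb10. They were chosen by name, as listed genes of the count table, and all 9 were found among its 33347 genes. RNA was sequenced from the 3′ end of transcripts in 10 lung samples. The mice were wild type and had been given bleomycin, which breaks DNA and scars the lung. In 5 of them the mice had received bone marrow cells with high activity of aldehyde dehydrogenase (ALDHbr), and in 5 cells with low activity (ALDHdim). All 10 thus carried both bleomycin and transferred cells. No lung without bleomycin and no lung without transferred cells was analysed here, and the sources used here name no age, sex or strain of the recipients, no bleomycin dose and no time of sampling. The labels number the samples but tie none to an animal of its own. The p-values therefore measure only the sample-to-sample spread, which may be technical.

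In the class I path, proteins are cut in the proteasome, the peptides are pumped into the endoplasmic reticulum by the Tap1-Tap2 transporter, and tapasin holds the empty heavy chain with B2m beside the transporter until a peptide fits. Interferon-gamma raises most of these genes, and it replaces the constitutive proteasome subunits Psmb5, Psmb6 and Psmb7 with Psmb8, Psmb9 and Psmb10, which changes the peptides that are cut. Nearly all nucleated cells carry class I molecules, and in lung the levels differ between leukocytes, endothelium and epithelium, so bulk tissue mixes them. In bulk samples, fewer cells of a type and less RNA per cell cannot be told apart.

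On GRCm38 (GENCODE mouse release 21), 7 of the 9 genes lie in the MHC region of chromosome 17. H2-K1 lies from 33996017 to 34000347, H2-D1 from 35262730 to 35267499, Tapbp from 33915899 to 33929292, Psmb9 from 34181987 to 34187764, Tap1 from 34187553 to 34197225, Psmb8 from 34197721 to 34201454 and Tap2 from 34203527 to 34216321. B2m lies on chromosome 2 from 122147686 to 122153083, and Psmb10 on chromosome 8 from 105935735 to 105938444. Each position spans the gene with its exons, introns and UTRs, and reads were summed over the gene.

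The promoters of the heavy chains and of B2m are shown because these genes moved together across the lungs, as described below. Tap1 moved with them, and the segment before its start site is printed after theirs. RefSeq (GRCm38.p6) gave a promoter window for 8 of the 9 genes. In the sequences, written 5′ to 3′ on the gene's strand as the 250 bases before the start site, capitals mark 2 motifs searched on both strands: the IRF core (AANNGAAA), the letters that interferon regulatory factors read, and the letters GGGGATTCC of the NF-kappaB site in the class I enhancer. The H2-K1 window is chr17:34000348-34000597 on the minus strand, the H2-D1 window chr17:35262844-35263093 on the plus strand and the B2m window chr2:122147437-122147686 on the plus strand.
H2-K1: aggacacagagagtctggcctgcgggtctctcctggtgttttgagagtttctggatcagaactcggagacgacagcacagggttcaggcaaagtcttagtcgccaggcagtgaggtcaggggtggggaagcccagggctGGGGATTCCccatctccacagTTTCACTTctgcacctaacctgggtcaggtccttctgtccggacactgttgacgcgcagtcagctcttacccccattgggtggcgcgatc
H2-D1: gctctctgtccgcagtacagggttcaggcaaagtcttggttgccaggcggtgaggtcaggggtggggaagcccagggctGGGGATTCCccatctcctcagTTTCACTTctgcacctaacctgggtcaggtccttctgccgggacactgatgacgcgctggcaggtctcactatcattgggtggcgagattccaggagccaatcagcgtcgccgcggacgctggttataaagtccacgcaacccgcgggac
B2m: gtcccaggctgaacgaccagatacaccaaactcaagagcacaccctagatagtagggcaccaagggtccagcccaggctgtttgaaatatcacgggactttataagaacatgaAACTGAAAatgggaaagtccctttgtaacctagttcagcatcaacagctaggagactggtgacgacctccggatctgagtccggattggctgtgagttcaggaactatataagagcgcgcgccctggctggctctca
The H2-K1 and H2-D1 windows share an identical stretch of 47 bases that holds the NF-kappaB letters. Those letters begin 111 bases before the H2-K1 start site and 171 before that of H2-D1, and among all 32851 promoter windows of this length 0.213% hold them. The IRF core was found once in each of the 3 windows and in 0 of the 5 other windows, and 21.3% of all windows hold it. Tap1, which moved with these 3 genes, is among the 5 others, and its window holds neither motif. Outside the 9 genes, the window of the constitutive subunit Psmb6 also holds the IRF core. Another motif searched, GAS (TTCNNNGAA), is held by 7.02% of all windows. Of the 8 windows only that of Psmb8 holds it, at −97 from the start site. A match is a description of the letters, not a site shown to be bound. Tap1 and Psmb9 are transcribed away from each other. The segment of 225 bases between their RefSeq start sites is shown because the pair shares it (chr17:34187331-34187555, plus strand). Capitals in it mark the CCAAT box, a motif held by 33.8% of windows of 250 bases. The H2-K1, H2-D1, B2m and Tapbp windows also hold that box on 1 strand or the other, left in lower case in the sequences above.
Tap1 and Psmb9: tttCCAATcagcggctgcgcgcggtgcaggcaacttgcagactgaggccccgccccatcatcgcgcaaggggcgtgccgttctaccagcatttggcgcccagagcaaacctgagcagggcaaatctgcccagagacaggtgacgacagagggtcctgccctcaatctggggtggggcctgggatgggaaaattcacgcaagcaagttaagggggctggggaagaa

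The libraries held 588063 to 2002947 counts. Lung markers were abundant in every library, with summed levels of 20182 to 48421 CPM for 5 alveolar type 2 genes and 16430 to 54615 CPM for 3 club cell genes. Levels are CPM, counts scaled to a fixed library total over the 10844 tested genes with TMM, which corrects for differences in library composition. Reads come from the 3′ end and counts are not proportional to length. Levels of different genes are not ranked here. ALDHbr 3 and ALDHbr 5 detected 24722 and 25377 genes, against 17044 to 21209 in the other libraries. Without both, the median log2 fold change of the 9 genes, described below, was −0.02. All 9 genes passed the filter on low counts. Together they took 0.51 to 0.82% of all counts, 0.62 ± 0.12% in ALDHbr and 0.69 ± 0.081% in ALDHdim (SD, n = 5 each).

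None of the 9 genes passed the test of a difference between recipients of ALDHbr and ALDHdim cells, by edgeR and by each alternative run. The heavy chains, B2m, Tapbp and Tap1 had lower mean levels in ALDHbr recipients and Psmb8 a higher one, each by less than the 95% interval of its difference. Of the 9 genes, 0 passed an adjusted p of 0.05 in edgeR's quasi-likelihood test, against 0% of all 10844 genes tested, and each of the 9 had an adjusted p of 0.99925. With no adjustment 0 of 9 had a p under 0.05, against 3.71% of all genes (2.13% higher and 1.58% lower in ALDHbr recipients), and none of the 9 had groups that did not overlap, against 0.535% of all genes. With DESeq2 and with limma-voom 0 of 9 also passed either level. The median log2 fold change (ALDHbr over ALDHdim) of the 9 genes was −0.08, beside 0.01 over all genes tested, and 4 estimates were above 0 and 5 below (with no low-count filter 1 and 8, with DESeq2 3 and 6). As a fold, the 95% intervals of the 9 genes ran at the widest from 0.658 (Tap1) to 1.38 (Tap2), so a change of 2-fold lay outside each of them.

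**Figure D1:**
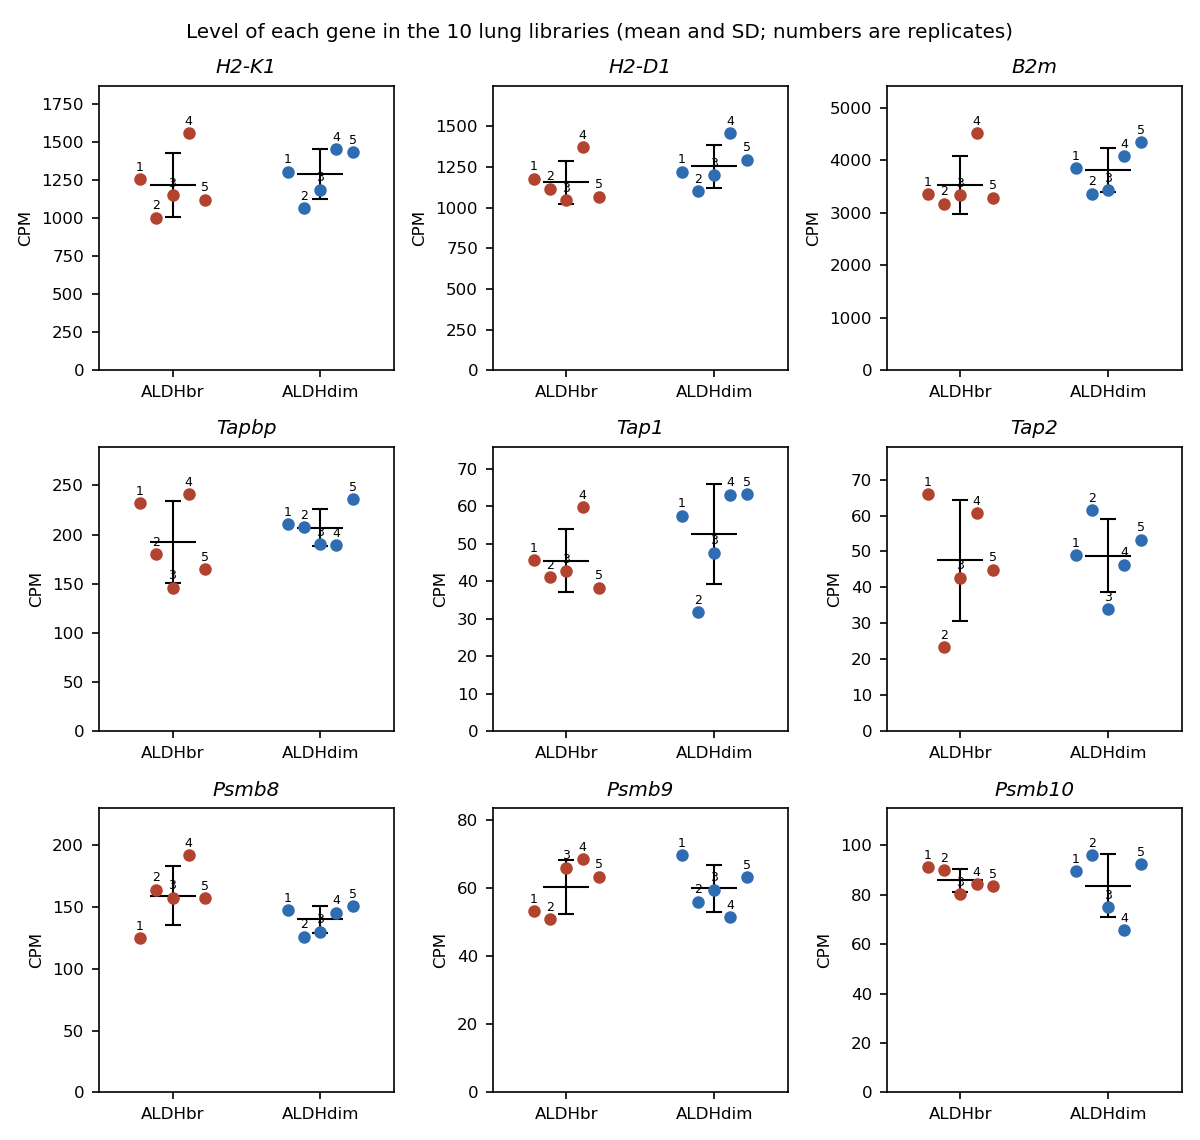
Level in CPM (vertical axis, from 0) of each of the 9 genes in the 5 ALDHbr and 5 ALDHdim libraries. Points are libraries numbered by replicate, and bars give the mean and SD. The groups overlap in each panel, and ALDHbr 4 is the highest ALDHbr library for H2-K1, H2-D1, B2m, Tapbp, Tap1, Psmb8 and Psmb9.

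Among the classical heavy chains, H2-K1, the K heavy chain, stood at 1258, 1003, 1150.02, 1558 and 1121 CPM in ALDHbr libraries 1 to 5 and at 1306, 1067, 1187, 1454 and 1434 CPM in ALDHdim libraries 1 to 5. ALDHbr 4 was the highest of all 10 and ALDHbr 2 the lowest, and the groups overlapped over most of their range. The log2 fold change was −0.08 (SE 0.16, 95% interval −0.41 to 0.25). It ran from −0.19 without ALDHbr 4 to −0.03 without ALDHbr 2, and was −0.02 without both ALDHbr 3 and ALDHbr 5. H2-D1, the D heavy chain, was at 1178, 1117, 1047, 1372 and 1067 CPM in the ALDHbr libraries in the same order and at 1222, 1101, 1198, 1456 and 1294 CPM in the ALDHdim libraries. Here ALDHdim 4 was the highest library and ALDHbr 4 the next, and the log2 fold change was −0.12 (SE 0.14, interval −0.41 to 0.18). Its estimate was −0.19 without ALDHbr 4, −0.06 without ALDHdim 4 and −0.03 without both ALDHbr 3 and ALDHbr 5. The heavy chains belong to a family of near-identical genes. Of the distinct 81-base stretches in the last 500 bases of annotated coding transcripts, 0.907% of those of H2-K1 and 0% of those of H2-D1 also occur in a transcript of another gene, so reads of that length from the reference strain would mostly tell them apart. How the authors' counting treated reads that match several genes was not stated in the labels.

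B2m, the light chain that every class I heavy chain needs, was at 3362, 3173, 3338, 4513 and 3288 CPM in the ALDHbr libraries and at 3851, 3365, 3435, 4081 and 4352 CPM in the ALDHdim libraries. ALDHbr 4 stood above the other 4 ALDHbr libraries, which lay within 3173 to 3362 CPM. The log2 fold change was −0.11 (SE 0.16, interval −0.45 to 0.22). It was −0.22 without ALDHbr 4, −0.06 without ALDHdim 5 and −0.05 without both ALDHbr 3 and ALDHbr 5. The gene overlaps Patl2 on the other strand, and the labels do not say whether counting used strand, so reads of the 2 genes may be mixed.

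For the loading complex, Tap1 was at 45.6, 41.1, 42.7, 59.8 and 38.3 CPM in the ALDHbr libraries and at 57.5, 31.8, 47.6, 63.2 and 63.2 CPM in the ALDHdim libraries. Its lowest library, ALDHdim 2, belonged to the group with the higher mean, and the log2 fold change was −0.19 (SE 0.20, interval −0.60 to 0.23). The estimate was −0.33 without ALDHdim 2, −0.10 without ALDHdim 5 and −0.07 without both ALDHbr 3 and ALDHbr 5. Tap2, the other transporter chain, ranged from 23.5 CPM in ALDHbr 2 to 65.9 CPM in ALDHbr 1, which was the widest span of the 9 genes (2.81-fold). The ALDHbr 2 value rests on 12 counts. Its log2 fold change was 0.01 (SE 0.21), and the estimate lay below 0 under DESeq2 and with no low-count filter. Tapbp ranged from 146 to 241 CPM in ALDHbr and from 189 to 236 CPM in ALDHdim libraries, with a log2 fold change of −0.10 (SE 0.15). Without both ALDHbr 3 and ALDHbr 5, its lowest libraries, that estimate was 0.083.

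Among the immunoproteasome subunits, Psmb8, which takes the place of Psmb5, was at 125, 164, 158, 192 and 157 CPM in the ALDHbr libraries and at 148, 126, 130.1, 146 and 151 CPM in the ALDHdim libraries. In ALDHbr recipients 4 of 5 libraries lay above the highest ALDHdim library, and the remaining one, ALDHbr 1, lay below all 5. The log2 fold change was 0.18 (SE 0.13, interval −0.09 to 0.46), the highest estimate of the 9 genes. Without ALDHbr 1 it was 0.26, with an unadjusted p of 0.043 and an adjusted p of 0.46 in the same edgeR quasi-likelihood test, the lowest adjusted p of its 19 alternatives, and without ALDHbr 4 it was 0.10. Psmb9, which takes the place of Psmb6, ranged from 50.9 to 68.4 CPM in ALDHbr and from 51.4 to 69.6 CPM in ALDHdim libraries, with a log2 fold change of 0.02 (SE 0.14). Psmb10, which takes the place of Psmb7, ranged from 80.2 to 91.2 CPM and from 65.7 to 95.8 CPM, with a log2 fold change of 0.03 (SE 0.13). With no low-count filter the Psmb9 and Psmb10 estimates lay below 0. In the annotation Psmb8, Psmb10, Tap2 and Tapbp overlap genes on the other strand, Tap1 and Psmb9 overlap each other, and Tapbp also overlaps Zbtb22 on its own strand, with which it shares 0.805% of its stretches.

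**Figure D2:**
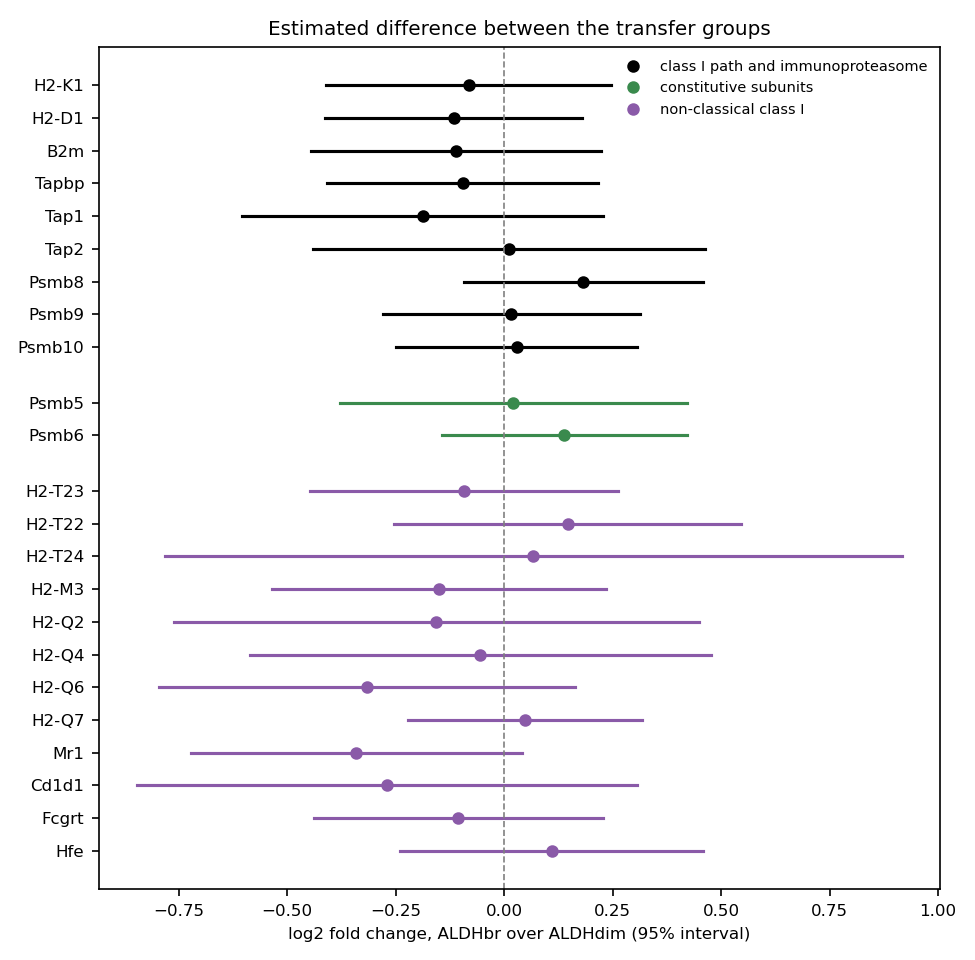
Log2 fold change of ALDHbr over ALDHdim (horizontal axis) with its 95% interval for the 9 genes (black), the constitutive proteasome subunits that were tested (green) and the non-classical class I genes that were tested (purple). Each interval includes 0.

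The exchange of proteasome subunits was read within each library as the ratio of counts of the immunoproteasome subunit to its constitutive counterpart, a quantity that library scaling does not change. Counts per Psmb5 count for Psmb8 were 4.54, 2.86, 4.02, 4.49 and 3.68 in ALDHbr libraries 1 to 5 and 4.21, 3.94, 2.98, 3.18 and 3.42 in the ALDHdim libraries. The groups overlapped, and the mean log2 ratio was 1.95 ± 0.27 in ALDHbr and 1.82 ± 0.21 in ALDHdim (SD, n = 5 each; exact two-sided permutation p = 0.40, adjusted over the 3 ratios p = 0.62). For Psmb9 per Psmb6 the ratio ran from 0.254 to 0.404 in ALDHbr and from 0.291 to 0.47 in ALDHdim libraries (difference in mean log2 ratio −0.13, exact permutation p = 0.43, adjusted p = 0.62). Psmb10 per Psmb7 ran from 8.74 to 15.2 and from 12.0 to 16.1 (difference −0.10, exact permutation p = 0.62, adjusted p = 0.62). Psmb7 had 84 counts over all 10 libraries, 3 to 15 in each, and was below the filter. Counting error alone thus gives the ratio of Psmb10 to Psmb7 a coefficient of variation of 40.3%, and the ratio varied by 16.1%. For Psmb8 per Psmb5 counting error comes to 16.6%, and the ratio varied by 16.2% over the 10 libraries. Differences between libraries in this ratio were therefore not detectable at this depth. For Psmb9 per Psmb6 the ratio varied by 17.0%, against 14.3% from counting error. Psmb5 and Psmb6 themselves had log2 fold changes of 0.02 (SE 0.19) and 0.14 (SE 0.13).

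**Figure D3:**
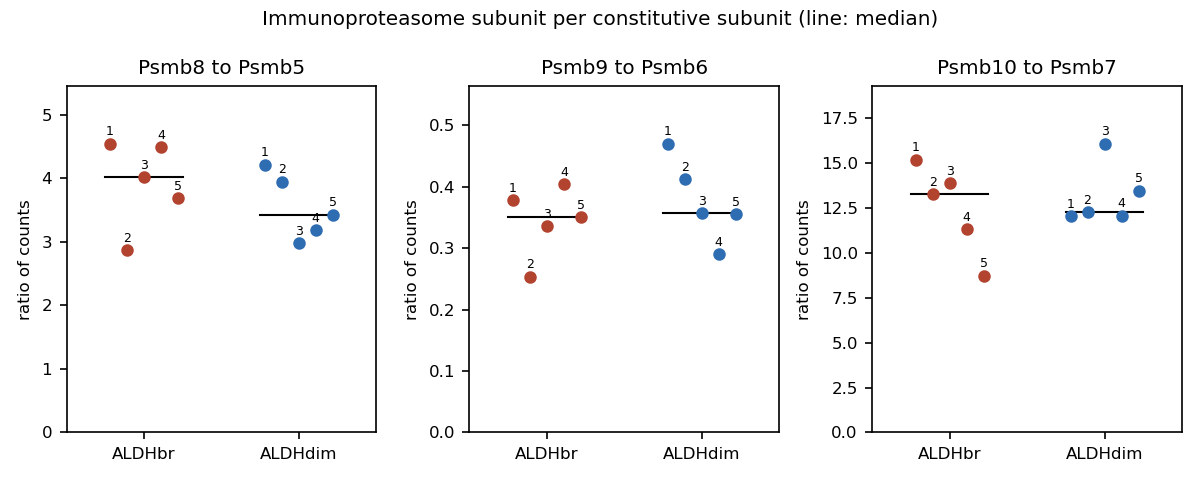
Ratio of counts of each immunoproteasome subunit to the constitutive subunit it replaces (vertical axis, from 0) in each library, numbered by replicate. Lines mark group medians. The groups overlap for each of the 3 ratios.

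Across the 10 lungs the heavy chains, B2m and Tap1 varied together. H2-K1 and B2m had a Pearson r of 0.94 over the 10 libraries in log2 CPM (permutation p = 3e-05, adjusted over all 36 pairs of the 9 genes p = 0.0011; Spearman rho 0.89, permutation p = 0.0012, adjusted p = 0.020). H2-K1 and Tap1 had an r of 0.89 (adjusted permutation p = 0.012; rho 0.90) and H2-K1 and H2-D1 an r of 0.87 (adjusted permutation p = 0.012; rho 0.85). The r of H2-D1 with B2m was 0.86, of H2-D1 with Tap1 0.86 and of B2m with Tap1 0.85, each with an adjusted permutation p of 0.012. These were the 6 pairs of 36 past the threshold by r, and also by rho, and they are the 6 pairs that these 4 genes form. When the 2 libraries farthest from the median of the first gene were left out, r ranged from 0.82 to 0.96 in these 6 pairs. With each gene centred within its transfer group, 5 of the 6 kept an adjusted p under 0.05, and H2-D1 with B2m had an r of 0.84 (adjusted p = 0.075, exact permutation within groups). The genes share library, depth, scaling and tissue piece. With upper-quartile scaling the same 6 pairs passed. The permutations treat the 10 libraries as exchangeable, whereas both libraries numbered 2 were low and both numbered 4 high for these genes. With each gene centred within its replicate number, r in the 6 pairs ranged from 0.68 to 0.96, and no test was possible at the threshold, since swaps within 5 numbers allow no exact p under 0.0625.

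**Figure D4:**
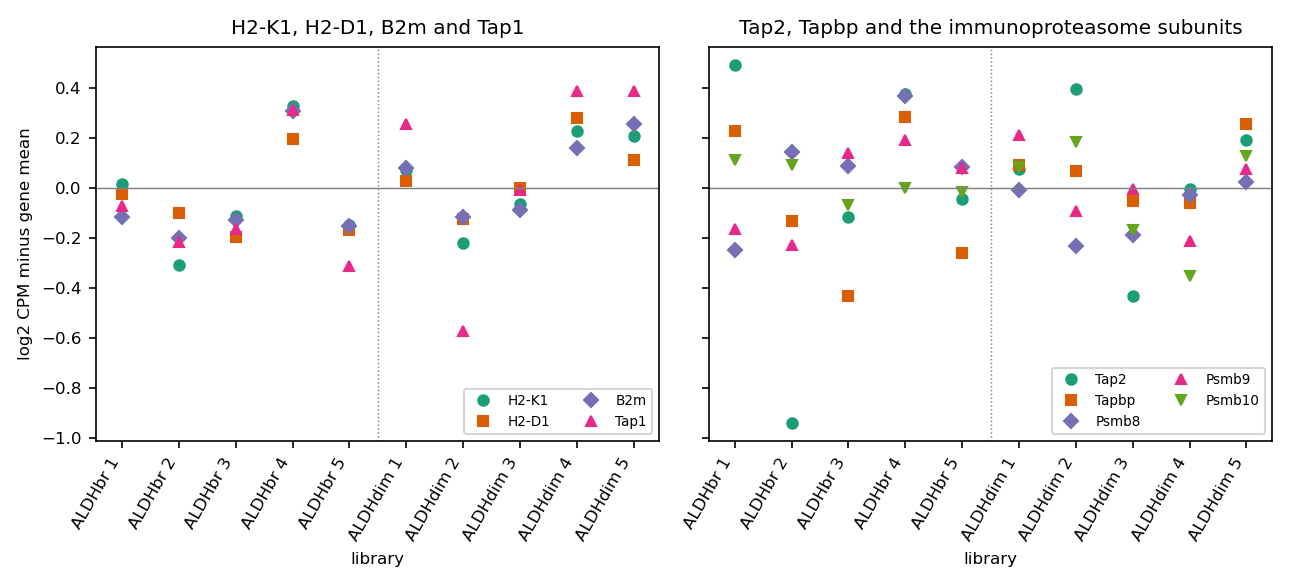
Level in log2 CPM of each gene minus its mean over the 10 libraries (vertical axis), by library (horizontal axis). In the left panel H2-K1, H2-D1, B2m and Tap1 lie together, high in ALDHbr 4, ALDHdim 4 and ALDHdim 5 and low in ALDHbr 2, ALDHbr 5 and ALDHdim 2. The right panel shows the other 5 genes on the same scale.

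The libraries that carried this pattern came from either group. H2-K1, H2-D1, B2m and Tap1 were each above their own mean in ALDHbr 4, ALDHdim 1, ALDHdim 4 and ALDHdim 5, and each below it in ALDHbr 2, ALDHbr 3, ALDHbr 5, ALDHdim 2 and ALDHdim 3. Tap1 reached 0.39 on the log2 scale above its mean in ALDHdim 4 and in ALDHdim 5, and lay 0.57 below it in ALDHdim 2 (a centred value of −0.57). The ratio of H2-K1 to H2-D1 counts within a library varied by 7.02% (coefficient of variation over 10 libraries, 0.899 to 1.14), against 3.89% from counting error, and that of B2m to H2-K1 counts by 5.04%, against 3.17%. The level of B2m itself varied by 13.2%.

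No pair that held a proteasome subunit, Tap2 or Tapbp passed the threshold. Tapbp had an r of 0.59 with H2-K1, 0.60 with H2-D1 and 0.62 with B2m (adjusted permutation p = 0.28 each). Psmb8 and Psmb9 had an r of 0.44 with each other (adjusted permutation p = 0.49), and Tap1 and its neighbour Psmb9, which share the segment printed above, an r of 0.26 (adjusted permutation p = 0.65). Psmb10 had negative r with each of the 4 genes, from −0.44 (H2-D1) to −0.17 (B2m), with adjusted permutation p of 0.49 to 0.77, but from −0.08 (H2-D1) to 0.57 (H2-K1) with each gene centred within its replicate number. Depth limits the pairs with Psmb9 and, in part, those with Psmb10. The level of Psmb9 varied by 13.0% within ALDHbr and 11.6% within ALDHdim libraries, where counting error alone gives 13.8 and 10.8%, and for Psmb10 the spread was 5.43 and 15.3%, against 11.3 and 9.31%. A relation of Psmb9 to other genes was thus hardly detectable at this depth, whereas Psmb10 varied beyond counting error within ALDHdim libraries. Why the pairs with Psmb10 did not pass was not tested. Whether r differs between pairs was not tested.

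**Figure D5:**
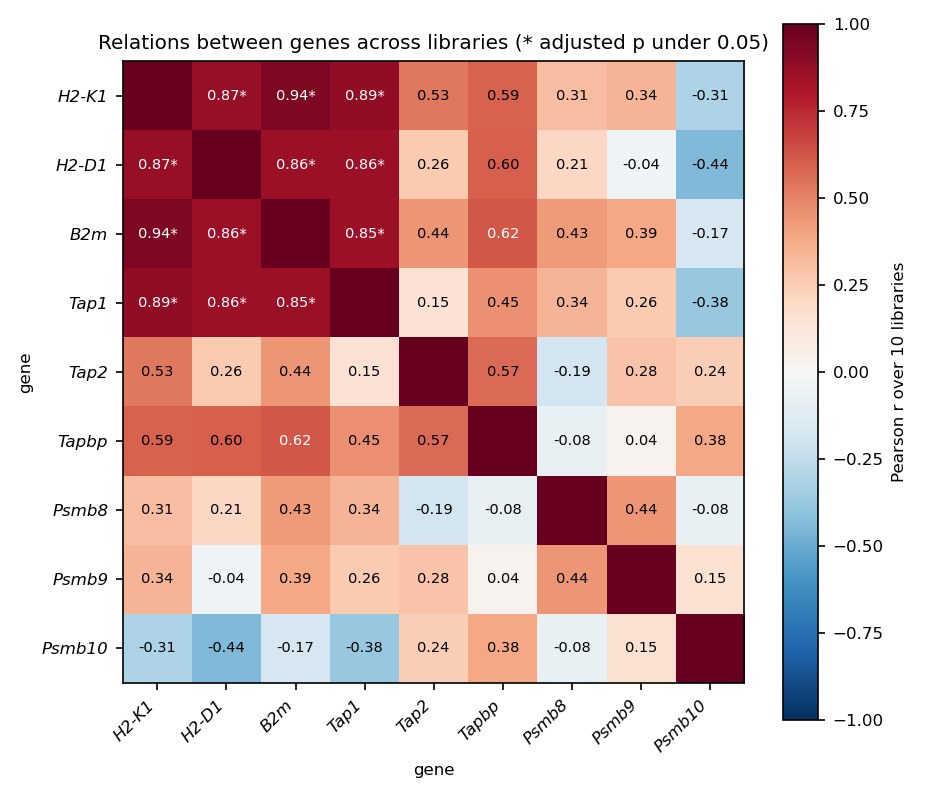
Pearson r between each pair of the 9 genes over the 10 libraries (colour and number), with an asterisk where the permutation p adjusted over 36 pairs is under 0.05. The 6 marked pairs are those among H2-K1, H2-D1, B2m and Tap1.

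Pan-leukocyte and fibroblast markers moved with this pattern in many libraries, and T cell markers in only some. Natural killer markers did not move with it, and macrophage and dendritic cell markers followed it within ALDHdim but not within ALDHbr libraries. The summed level of 6 pan-leukocyte genes (Ptprc, Coro1a, Laptm5, Cd52, Cd53 and Rac2) was 811, 794, 1088, 1366 and 1239 CPM in ALDHbr libraries 1 to 5 and 961, 804, 949, 1330 and 1529 CPM in the ALDHdim libraries. It was highest in ALDHdim 5, ALDHbr 4 and ALDHdim 4, which were also the 3 highest for H2-K1, and lowest in ALDHbr 2 and ALDHdim 2, which were the 2 lowest for H2-K1. In ALDHbr 5, in contrast, the leukocyte genes were high and H2-K1 low. The 10 T cell genes summed to 124 to 194 CPM in ALDHbr and 108 to 203 CPM in ALDHdim libraries, also highest in ALDHdim 5 and ALDHbr 4. They were lowest, however, in ALDHdim 1 (108 CPM), where H2-K1 was above its mean, and high in ALDHbr 5 (171 CPM), where H2-K1 was low. Natural killer genes were instead highest in ALDHbr 2 (131 CPM) and ALDHdim 2 (109 CPM). Macrophage and dendritic cell genes were highest in ALDHbr 2 (1191 CPM) and lowest in ALDHbr 4 (681 CPM). In ALDHdim libraries 1 to 5 they were at 1057, 930, 983, 1070.2 and 1053 CPM. Within that group ALDHdim 2 was the lowest and ALDHdim 4 the highest, as for H2-K1. B cell genes were highest in ALDHbr 4 (138 CPM), followed by ALDHbr 2 (115 CPM) and ALDHdim 2 (109 CPM). Fibroblast genes were highest in ALDHdim 5 (2525 CPM) and ALDHdim 4 (2464 CPM). They were lowest in ALDHbr 3 (821 CPM), ALDHdim 2 (1074 CPM) and ALDHbr 2 (1103 CPM). Alveolar type 2 genes ran the other way, with their lowest sums in ALDHdim 5 (20182 CPM), ALDHdim 4 (21458 CPM) and ALDHbr 4 (22944 CPM) and their highest in ALDHbr 2 (48421 CPM). The 6 endothelial genes summed to 829 to 1757 CPM and 793 to 1957 CPM, highest in ALDHdim 2. They were lowest in ALDHdim 4 (793 CPM), followed by ALDHbr 3 (829 CPM) and ALDHdim 5 (855 CPM). None of the markers in these lists was at 0 in any library. Their part in the class I pattern was not tested. 

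Between groups, no marker of another cell type was called, and up to 2 tested genes of smallest p stand for each list. Pan-leukocyte genes had a median log2 fold change of −0.09, with Laptm5 at −0.31 (SE 0.21) and Rac2 at −0.17 (SE 0.18). For T cells the median was −0.04, with Trbc2 at 0.21 (SE 0.23) and Cd3d at 0.24 (SE 0.28). Natural killer genes, of which 3 of 7 were tested, had a median of 0.34, with Klrd1 at 0.57 (SE 0.24) and Nkg7 at 0.34 (SE 0.40). B cell genes had a median of 0.29 (Ms4a1 0.29, SE 0.23) and macrophage and dendritic cell genes one of −0.17 (Itgax −0.53, SE 0.34, and Xcr1 0.44, SE 0.35). Endothelial genes had a median of −0.09 (Cdh5 −0.33, SE 0.33, and Kdr −0.21, SE 0.37), alveolar type 2 genes one of 0.05 (Abca3 0.29, SE 0.32, and Lamp3 −0.16, SE 0.18), and club cell genes one of 0.01 (Scgb3a2 0.42, SE 0.38, and Cyp2f2 −0.16, SE 0.36). All 5 fibroblast genes had lower estimates (median −0.30), with Col1a1 at −0.57 (SE 0.58) and Col1a2 at −0.39 (SE 0.42), so they spread widely within the groups.

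The genes whose log2 level followed the mean of the 9 genes most closely over the 10 libraries were Prr3 (r = 0.92), Tradd (0.91), Il2rg (0.90), Apobec3 (0.89), C1qbp (0.89), Igsf8 (0.88), Got2 (0.88) and Pld4 (0.88). The mean is not the pattern of the heavy chains, B2m and Tap1 alone. Each of the 9 genes had an r with the mean of the rest that ran from −0.06 (Psmb10) to 0.91 (B2m). The median r of all other tested genes with that mean was 0.02, and 5% of them lay above 0.64. Tradd is an adaptor of the tumour necrosis factor receptor, Il2rg the common chain of several interleukin receptors and Apobec3 a cytidine deaminase that restricts retroviruses. These 8 genes are given as a description, since the highest of many correlations over 10 libraries are high by selection. Their log2 fold changes between groups ran from −0.29 (Igsf8) to 0.03 (Pld4).

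No other gene of the pathway passed the same test. Of 15 non-classical class I genes and class I relatives, 12 were tested, 0 were called, and 8 had lower and 4 higher estimates with a median of −0.10. Mr1, which presents microbial vitamin metabolites to innate-like T cells, averaged 32.2 CPM after ALDHbr and 41.4 CPM after ALDHdim transfer (log2 fold change −0.34, SE 0.18), and H2-Q6 differed by −0.32 (SE 0.23). H2-T23, the mouse Qa-1 chain that holds leader peptides of class I molecules for natural killer receptors, differed by −0.09 (SE 0.17), H2-M3, which presents formylated peptides, by −0.15 (SE 0.18), Cd1d1, which presents lipids, by −0.27 (SE 0.27), and Fcgrt, the neonatal Fc receptor chain that also pairs with B2m, by −0.11 (SE 0.16). H2-T22, H2-T24, H2-Q2, H2-Q4, H2-Q7 and Hfe, the iron regulator, differed by 0.15, 0.07, −0.16, −0.05, 0.05 and 0.11, with SE of 0.13 to 0.40. Copies in this family share sequence near their 3′ ends, for 33.9% of the stretches of H2-T22 and 29.8% of those of H2-Q6, so their counts are uncertain. H2-T10, H2-Q1 and H2-Q10 were below the filter.

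In peptide trimming and loading, 13 of 13 genes were tested and 0 called (median −0.01). Erap1, the aminopeptidase that trims peptides in the endoplasmic reticulum, differed by −0.21 (SE 0.16), Sec61b, part of the protein channel into that compartment, by 0.19 (SE 0.16), and the chaperone Calr by −0.13 (SE 0.15). Of 9 genes for proteasome activators and assembly 0 were called (median 0.01). Psme1 and Psme2, the interferon-induced activator ring, differed by −0.01 (SE 0.12) and 0.01 (SE 0.14), the assembly factor Pomp by 0.00 (SE 0.13), the activator Psme4 by −0.14 (SE 0.18) and Psmg3 by 0.14 (SE 0.20). Among 11 structural subunits of the proteasome core 0 were called (median −0.03), and the alpha subunits Psma4 and Psma7 had the smallest p, with log2 fold changes of −0.30 (SE 0.14) and 0.26 (SE 0.15).

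Regulators and interferon signalling genes did not pass the test. Of 14 transcription regulators of class I genes 12 were tested and 0 called (median −0.02). Nlrc5, the class I transactivator, averaged 6.99 CPM after ALDHbr and 9.9 CPM after ALDHdim transfer (log2 fold change −0.37, SE 0.39), from 118 counts in all and 0 in ALDHbr 2. Irf1 differed by −0.12 (SE 0.15) and Creb1 by 0.17 (SE 0.15). Ifng, the gene of interferon-gamma, had 1 count over all 10 libraries and was not tested, and of the 11 interferon receptor and signalling genes 10 were tested and 0 called (median 0.02), with Irf9 at 0.28 (SE 0.17) and Ifngr2 at 0.18 (SE 0.15). Of 17 interferon-gamma-induced GTPases, chemokines and other targets 11 were tested and 0 called (median −0.13), with 9 lower and 2 higher estimates. Irgm2 and Igtp, GTPases that act against intracellular microbes, differed by −0.28 (SE 0.21) and −0.24 (SE 0.22), and Cxcl9, a chemokine for activated T cells, by −0.60 (SE 0.66). The MHC class II genes, which serve peptides taken up from outside, had a median of 0.03 with 0 of 8 called, and Cd74, the invariant chain, and H2-DMa differed by −0.18 (SE 0.24) and 0.13 (SE 0.24). Their summed level was highest in ALDHdim 5 (6767 CPM) and ALDHbr 4 (6420 CPM) and lowest in ALDHdim 2 (2809 CPM), libraries that were also high and low for H2-K1. In ALDHbr 5, in contrast, the class II genes were high (5709 CPM) and H2-K1 low (1121 CPM).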

How the data were processed

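Lung RNA was prepared by BRB-seq, per the labels' protocols: an oligo-dT primer adds a sample barcode of 9 nt and a molecular identifier (UMI) of 10 nt, samples are pooled, and the other read gives 81 nt of RNA. Without roles, the submitters' processing notes name HISAT2 2.2.1 and featureCounts 2.0.1, Trim Galore 0.6.7, UMI-tools and DESeq2, and the builds GRCm38 and GRCh38. The authors deposited raw counts per gene. The use of UMIs, of strand and of an annotation in counting was not stated. Uncollapsed PCR copies would add counts without molecules, and counting errors here cover counting only.

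Genes passing edgeR's filterByExpr (minimum count 10; 10844 of 33347 genes, 97.3% of counts) entered edgeR 4.0.16 in R 4.3.3 with TMM factors (glmQLFit, robust, and glmQLFTest), ALDHbr against ALDHdim, with Benjamini-Hochberg adjustment over all tested genes and a threshold of 0.05. The test was checked on simulated counts. SE equal the fold change divided by the root of F, and intervals are at 95%. Relations used log2 CPM with a prior count of 2 and 100000 permutations, and ratios an offset of 0.5 counts. Counts of each pair of libraries, within or across groups, differed by more than sampling noise (a chi-square of at least 2.4 per degree of freedom). Alternatives were other scaling, other filters, DESeq2 1.42.0, limma 3.58.1 (voom, weighted by sample), a block for the replicate number, removal of hemoglobin, immunoglobulin and mitochondrial genes, and omission of libraries. Plots used matplotlib 3.10.9.

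The genes and lists were chosen with earlier results of these data known, and the motifs after the promoters had been read. Named genes are the 9 genes, of each list the 2 tested genes of smallest p and any gene called, all non-classical class I genes and constitutive subunits, and the 8 genes of most similar pattern. Single genes named for their role (Calr, Psme1, Psme2, Pomp, Irf1, Cxcl9 and Ifng) and the ratios among H2-K1, H2-D1 and B2m were added after their values were seen. Some genes that the rule would name are not reported here.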

Additional observations from a re-analysis of the deposited data

Results flagged for a closer look

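In 6 of 62 sets of 5 libraries (each gene, ratio or list sum within a group), the highest or lowest library was set apart by a gap that filled more than 0.71 of the range of that group. Chance alone flags about 1 set in 20, or 3.1 of 62. B2m in ALDHbr 4 was at 4513 CPM, and the remaining ALDHbr libraries lay between 3173 and 3362 CPM (gap 0.858 of the range). The non-classical class I genes summed to 561 CPM in the same library, with 434 to 469 CPM in the rest of its group (0.727). Class I transcription regulators summed to 626 CPM in ALDHdim 3, with 667 to 683 CPM in the rest (0.717). Natural killer cell genes were high in ALDHbr 2, at 131 CPM with 56.6 to 75.5 CPM in the rest (0.746), and in ALDHdim 2, at 109 CPM with 55.5 to 64.8 CPM in the rest (0.827). Club cell genes summed to 54615 CPM in ALDHbr 2, with 18092 to 28422 CPM in the rest (0.717).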

How the results depend on the processing

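Of the 9 genes, 0 passed the threshold under each of the 19 alternatives. The median log2 fold change of the 9 genes ran from −0.188 (without ALDHbr 4) to −0.0091 (without ALDHbr 3) when libraries were left out, and each alternative left it below 0. Over all genes, the count of 0 became 185 with no low-count filter (182 higher, 3 lower), where the median of all genes was 0.22. Estimates changed sign in 19 of 171 cases, the cause not being tested. They did so with no filter for Tap2 (−0.038), Psmb9 (−0.046) and Psmb10 (−0.033), and with DESeq2 for Tap2 (−0.019). Without both ALDHbr 3 and ALDHbr 5, Psmb9 was at −0.043 and Tapbp at 0.083, whereas Tapbp was at −0.096 with all libraries. With single libraries left out, Tap2 ran from −0.14 to 0.13, Psmb9 from −0.038 to 0.071 and Psmb10 from −0.046 to 0.083. The Psmb10 to Psmb7 difference ran from −0.17 to 0.026, and was 0.0066 without both ALDHbr 3 and ALDHbr 5. Psmb8 to Psmb5 ran from 0.08 to 0.24 and Psmb9 to Psmb6 from −0.22 to −0.02. The groups share replicate numbers, but the samples of number 1 did not deviate together (r = 0.06, against 0.15 to 0.37 for the other 4 numbers), and 7 of 10 libraries matched best with their own number. With the replicate number as a block, 0 genes passed and Tap2 was at −0.0061. In a check added after the data were seen, centring each gene within its number took the median r of the 6 related pairs from 0.87 to 0.74. Depth limits Tap1, Tap2, Psmb9 and Psmb10 most, at 12 to 190 counts a library.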
